A study of Mus musculus with 6 samples.

Results

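The clustered histone genes encode the core and linker histones that are made while DNA is replicated. They were taken as every gene in the files whose symbol starts with Hist1h, Hist2h, Hist3h or Hist4h, which gave 69 of 24982 genes. By the letters of their symbols, 6 belong to H1, 19 to H2A, 19 to H2B, 12 to H3 and 13 to H4. Among them, 2 are processed pseudogenes in GENCODE M21, Hist3h2bb-ps of the H2B type and Hist1h2al of the H2A type, both at 0 in every library. RNA-seq had been run on 2 keratinocyte lines of C57BL/6 mice from neonatal skin, neither of them treated. The KSFM-Ca2+ line was derived and kept in a low-calcium serum-free medium, and the DKSFM line was obtained from KSFM-Ca2+ cells by adaptation to a defined medium. Each line had 3 replicate libraries of poly(A) RNA, read as directional single reads of 85 bases. The lines thus differ in medium and in the passage through adaptation, and these cannot be told apart.

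Core histones H2A, H2B, H3 and H4 form the nucleosome around which DNA is wound, and H1 binds the linker DNA between nucleosomes. Most mRNAs of the clustered genes end in a short stem-loop in place of a poly(A) tail, are bound there by SLBP, and accumulate during S phase. Some clustered genes can also give longer, polyadenylated transcripts, and most replacement variants, whose genes lie outside the clusters, have polyadenylated mRNAs.

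The deposited value for a gene was its mean read coverage, the average number of reads over each base, written to 1 decimal and not scaled to library size. Coverage summed over all genes was 1601676, 1238411 and 1057750 in KSFM-Ca2+ replicates 1, 2 and 3. It was 1174348, 1239438 and 1170675 in DKSFM replicates 1, 2 and 3. Scaled coverage below is this value after normalisation for depth by a trimmed mean of M values, with factors from 0.9908 to 1.013. Listed coverage is the value as deposited. What a replicate was is not stated in the sources used here, so p-values measure the spread between these libraries, which may be technical. In bulk RNA, fewer cells in a phase of the cell cycle and less RNA per cell cannot be told apart.

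The ends of the transcripts bear on what a poly(A) library can hold, so they were read from GENCODE M21 on GRCm38 (mm10). The stem-loop was searched as a 6-base stem that starts with GG and a 4-base loop that starts with TTT. It was present in an annotated transcript of 44 of the 69 genes (63.8%), and in a transcript of 28 of 20516 other coding genes (0.1%). Of the 54 histone genes with an annotated 3′ UTR, 44 held it (81.5%). A poly(A) signal, AATAAA or ATTAAA on the transcribed strand, lay in the last 50 bases of a transcript in 17 of the 69 genes (24.6%), against 17031 of the 20516 others (83.0%). The annotated end lay at most 60 bases after the stem-loop in 21 genes, and 3 to 4884 bases after it over all genes with one. These 4 stem-loops are shown because they belong to genes with high coverage or with a lower level in the DKSFM line. Capitals mark the stem and loop.
Hist3h2a: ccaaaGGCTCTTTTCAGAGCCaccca
Hist1h1c: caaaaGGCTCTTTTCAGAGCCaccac
Hist1h4i: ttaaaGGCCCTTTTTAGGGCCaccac
Hist1h1e: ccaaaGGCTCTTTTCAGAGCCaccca
Of these, Hist3h2a, Hist1h1c and Hist1h4i are annotated with transcripts that end 1643, 840 and 330 bases past the stem-loop and hold a poly(A) signal in their last 50 bases, in capitals here.
Hist3h2a: atatgcccAATAAAataagagtacgtgtat
Hist1h1c: atgcttctAATAAAaagcgtttagttttca
Hist1h4i: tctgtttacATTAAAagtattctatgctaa
A signal was not confined to abundant genes, as Hist1h4h and Hist1h2be, with a mean scaled coverage of 0.847 and 0.669 over the 6 libraries, also hold one. Over the 17 genes with a signal the summed scaled coverage had a log2 ratio of DKSFM to KSFM-Ca2+ of −0.16, and over the 52 without it −0.23. Hist1h2bc alone held most of the sum without a signal, 41.7 of 67.2 in KSFM-Ca2+ and 48.0 of 57.3 in DKSFM (means). Over the tested genes the median log2 fold change was −0.15 with a signal and −1.58 without. Of the tested genes, 2 of 6 with a signal and 6 of 11 without were at least 2-fold lower in DKSFM at a limma adjusted p under 0.01, where 10.5% of all tested genes were. In each set, 2 of these reached the minimum for testing in KSFM-Ca2+ libraries only and so had to be lower. The difference between the sets was not tested, and nothing is drawn from these counts. In RefSeq (GRCm38.p6) Hist3h2a, Hist1h1c and Hist1h4i are 508, 725 and 403 bases long, against 2146, 1560 and 727 in GENCODE. The long ends given above are thus those of 1 annotation. A match describes the annotated sequence, and which end the sequenced RNAs had was not measured.

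Clustered histone genes took a small part of the libraries, 0.00733% to 0.00896% of total coverage. Most of it came from the 4 genes with a mean scaled coverage of at least 2 over the 6 libraries, a limit chosen after the values were seen. These were the H2B gene Hist1h2bc, the H2A gene Hist3h2a, the H1 gene Hist1h1c and the H4 gene Hist1h4i. They made up 71.4%, 69.4% and 73.6% of histone coverage in the KSFM-Ca2+ libraries and 89.2%, 91.0% and 85.5% in the DKSFM libraries. The other 65 genes had a listed coverage of at most 3.2 in any library.

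Scaled coverage of Hist1h2bc was 42.1, 38.1 and 45.0 in the KSFM-Ca2+ libraries and 49.4, 48.3 and 46.3 in the DKSFM libraries. All DKSFM libraries were higher, with means of 41.7 ± 3.46 and 48.0 ± 1.54 (SD, n = 3 each). The log2 fold change, DKSFM over KSFM-Ca2+, was 0.21 ± 0.06 (SE), with a limma adjusted p of 0.0151, short of the threshold of 0.01 with at least 2-fold. Hist1h2bc lies at chr13:23684199-23692908 on the plus strand, and none of its annotated transcripts held the stem-loop or a poly(A) signal in the last 50 bases.

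Hist3h2a, at chr11:58954685-58956830, had a scaled coverage of 19.0, 18.1 and 17.5 in the KSFM-Ca2+ libraries and 16.0, 18.5 and 20.5 in the DKSFM libraries. The lines overlapped, and the log2 fold change of 0.01 ± 0.09 (limma adjusted p = 0.958) turned negative when depth was scaled by library totals or by quantiles (−0.01 and −0.07). The linker gene Hist1h1c, at chr13:23738808-23740367, gave 12.8, 12.2 and 14.7 against 11.5, 10.7 and 10.1. Every DKSFM library was lower, and the log2 fold change of −0.30 ± 0.09 (limma adjusted p = 0.0131) was within 2-fold. Hist1h4i, at chr13:22040636-22041362, gave 4.19, 4.55 and 4.48 against 6.05, 5.10 and 7.31. Every DKSFM library was higher, and the log2 fold change of 0.46 ± 0.13 (limma adjusted p = 0.0114) was also within 2-fold.

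**Figure D1:**
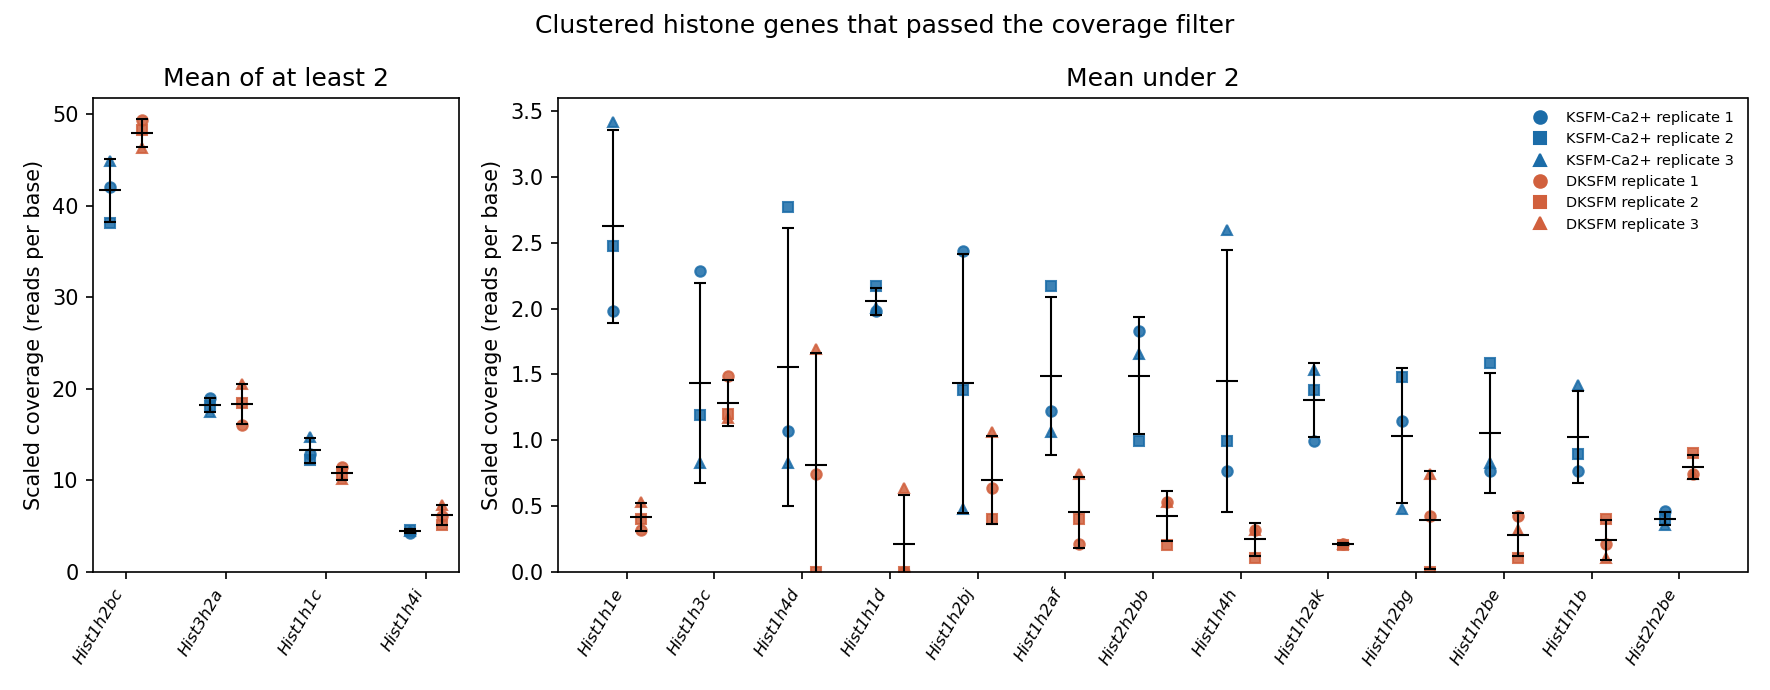
Scaled coverage (reads per base) of the 17 histone genes that passed the filter, by library, with the mean and SD of each line (n = 3) in black. The 4 genes on the left lie within 2-fold between lines, while 8 of the 13 on the right, with a mean under 2, were lower in DKSFM past the threshold (10.5% of all tested genes were), 4 of them having passed the filter through KSFM-Ca2+ libraries only.

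The 65 other genes together summed to a scaled coverage of 31.3, 32.1 and 29.3 in the KSFM-Ca2+ libraries. In the DKSFM libraries the sum was 10.1, 8.19 and 14.3. All DKSFM sums were lower, with replicate 3 the highest of them. The means were 30.9 ± 1.48 and 10.9 ± 3.13 (SD, n = 3), a KSFM-Ca2+ level 2.85 times that of DKSFM. The 4 abundant genes summed to 77.5 ± 4.41 and 83.2 ± 0.856, a log2 ratio of 0.10 in the other direction. The log2 ratio over the 65 genes was −1.51, and it was −1.05 when the limit was set at a mean of 10 instead of 2. As these sums rest on a limit set with the values known, no test was made of them.

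The low values stand for few reads. In the 62 members with a RefSeq gene length under 1000 bases, a whole read of 85 bases adds 0.093 to 0.227 to the coverage (median 0.176), as an approximation from that length. For 59 of the 65 other genes this came to about 243, 185 and 153 reads in the KSFM-Ca2+ libraries and 49.8, 43.6 and 73.2 in the DKSFM libraries. A value was listed at 0 in 71 of 195 cases in KSFM-Ca2+ (36.4%) and 114 of 195 in DKSFM (58.5%). Of all 69 genes, 49, 45 and 42 were above 0 in the KSFM-Ca2+ libraries and 30, 28 and 35 in the DKSFM libraries. Over all 24982 genes, 14140, 13876 and 13748 were above 0 in the KSFM-Ca2+ libraries and 14101, 14106 and 14069 in the DKSFM libraries. At this depth, differences of single low genes between libraries can amount to a few reads.

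A gene was tested if its scaled coverage was at least 0.5 in at least 3 libraries. This kept 17 of the 69 histone genes (4 H1, 3 H2A, 6 H2B, 1 H3, 3 H4) and left 52 untested, 13 of them at 0 in every library. Of the 17, 8 were lower in DKSFM at an adjusted p under 0.01 and at least 2-fold, where 10.5% of all 12409 tested genes were. None was higher (0), where 13.2% of all tested genes were, and 3 of the 4 with a log2 fold change above 0 had an unadjusted limma p under 0.05. At that p, 5119 of all tested genes were lower (41.3%) and 5040 higher (40.6%). Of the 8, Hist1h2ak, Hist1h1b, Hist1h4h and Hist1h2be passed the filter through KSFM-Ca2+ libraries only, with no DKSFM library at the minimum. These 4 had to be lower, so their fold changes and p-values describe the values and, like the count of 8, support nothing by themselves. In the other 4 of the 8 the KSFM-Ca2+ libraries alone also met the filter. Of the 56 histone genes above 0 in a library, tested or not, the mean was higher in KSFM-Ca2+ in 47 (83.9%) and in DKSFM in 9 (16.1%), where the same held for 49.2% and 50.8% of all 16081 genes above 0 in a library. Every DKSFM library was below every KSFM-Ca2+ library in 17 (30.4%) and above in 4 (7.14%), against 34.7% and 35.2% of the 16081.

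Of the 4 tested genes of linker histone H1, 3 fell, where 10.5% of all tested genes did. Listed coverage of Hist1h1e was 2.6, 2.5 and 2.9 in the KSFM-Ca2+ libraries and 0.3, 0.4 and 0.5 in the DKSFM libraries. The lines did not overlap, and Hist1h1e fell by 2.39 ± 0.25 on the log2 scale (limma adjusted p = 3.3e-05). Its locus, chr13:23620629-23622558, lies partly within that of Hist1h2be, and 26.9% of its 85-base windows occur in other genes as well, so its value is uncertain to that extent. Hist1h1d was listed at 2.6, 2.2 and 1.7 against 0, 0 and 0.6, and fell by 3.47 ± 0.71 (limma adjusted p = 0.00212). Only DKSFM replicate 3 was above 0 in that line, and without DKSFM replicate 2 the adjusted p was 0.0131. Hist1h1b was listed at 1.0, 0.9 and 1.2 against 0.2, 0.4 and 0.1 (−1.78 ± 0.37, limma adjusted p = 0.00242), and its adjusted p was 0.0123 without KSFM-Ca2+ replicate 3. It is among the genes that had to be lower to pass the filter. Hist1h1a was listed at 0.1 in DKSFM replicate 2 and at 0 elsewhere, and the testis gene Hist1h1t was at 0 in all 6 libraries. Summed over the 6 genes, H1 coverage was 17.5, 17.7 and 21.6 in KSFM-Ca2+ and 12.0, 11.6 and 11.3 in DKSFM, a log2 ratio of −0.70. Hist1h1c made up most of this sum, and the 5 other genes averaged 5.70 ± 1.07 and 0.901 ± 0.371.

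For H2A, the sum over 19 genes was 25.5, 24.7 and 21.7 in the KSFM-Ca2+ libraries and 18.4, 20.8 and 24.0 in the DKSFM libraries. The lines overlapped (log2 ratio −0.19, with −0.10 without DKSFM replicate 1 and −0.29 without DKSFM replicate 3). The ratio was −0.333 under quantile scaling and −0.045 with only the libraries whose files are marked as combined. Hist3h2a made up most of the sum. Without it, the 18 other genes averaged 5.78 ± 1.33 in KSFM-Ca2+ and 2.71 ± 0.682 in DKSFM. Hist1h2ak was listed at 1.3, 1.4 and 1.3 against 0.2, 0.2 and 0.2. It fell by 2.17 ± 0.23 (limma adjusted p = 3.7e-05), the DKSFM values being close to that of 1 read, and it is among the genes that had to be lower to pass the filter. Hist1h2af was listed at 1.6, 2.2 and 0.9 against 0.2, 0.4 and 0.7 (−1.58 ± 0.40, limma adjusted p = 0.00645). It shared 67.0% of its windows with other genes, and its adjusted p was 0.0107 to 0.0272 without KSFM-Ca2+ replicate 1, 2 or 3 or DKSFM replicate 1 or 2. Hist2h2ac (0.9, 0.9 and 0.2 against 0.2, 0.2 and 0.2) and Hist1h2ab (0.7, 0.7 and 0.4 against 0.2, 0.1 and 0.3) did not pass the filter.

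For H2B, the sum over 19 genes was 52.0, 47.2 and 52.9 against 52.3, 51.2 and 50.7. The lines overlapped, and the log2 ratio of 0.02 turned to −0.04 under quantile scaling and with only the libraries whose files are marked as combined. Hist1h2bc made up most of it, and the 18 other genes averaged 8.97 ± 1.01 and 3.41 ± 0.816. Hist2h2bb was listed at 2.4, 1.0 and 1.4 against 0.5, 0.2 and 0.5 and fell by 1.65 ± 0.36 (limma adjusted p = 0.00271). It shared 48.1% of its windows with another gene, and its adjusted p was 0.0145 without KSFM-Ca2+ replicate 1 and 0.0138 without replicate 3. Hist1h2be was listed at 1.0, 1.6 and 0.7 against 0.4, 0.1 and 0.3 (−1.65 ± 0.42, limma adjusted p = 0.00662), and its call was lost without any 1 library other than DKSFM replicate 1 (0.0122 to 0.0284). This gene, too, had to be lower to pass the filter. Hist1h2bj was listed at 3.2, 1.4 and 0.4 against 0.6, 0.4 and 1.0, with overlap and no call (limma adjusted p = 0.211). Hist1h2bg was listed at 1.5, 1.5 and 0.4 against 0.4, 0 and 0.7, also with overlap. Hist2h2be, named after its values were seen, went the other way. It was listed at 0.6, 0.4 and 0.3 against 0.7, 0.9 and 0.7, a log2 fold change of 0.83 ± 0.21 (limma adjusted p = 0.00562) and so under 2-fold, and it passed the filter through DKSFM libraries only.

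All 12 H3 genes had a mean under 2, and their sum was 4.65, 3.56 and 3.42 in the KSFM-Ca2+ libraries and 2.76, 1.30 and 1.91 in the DKSFM libraries. Every DKSFM sum was lower (log2 ratio −0.96). The only H3 gene tested, Hist1h3c, was listed at 3.0, 1.2 and 0.7 against 1.4, 1.2 and 1.1, and its lines overlapped. Its log2 fold change of −0.04 ± 0.32 (limma adjusted p = 0.911) was 0.33 without KSFM-Ca2+ replicate 1, the library with the highest value. Hist1h3d, Hist1h3a, Hist1h3e and Hist1h3b reached at most 0.7 in any library.

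The 13 H4 genes summed to 9.76, 11.9 and 11.3 in KSFM-Ca2+ and 7.54, 5.90 and 10.6 in DKSFM, with overlap (log2 ratio −0.46, with −0.28 without DKSFM replicate 2 and −0.71 without DKSFM replicate 3). Without Hist1h4i, the 12 others averaged 6.58 ± 0.907 and 1.86 ± 1.28. Hist1h4h was listed at 1.0, 1.0 and 2.2 against 0.3, 0.1 and 0.3 and fell by 2.06 ± 0.48 (limma adjusted p = 0.00409). Its adjusted p was 0.0106 without KSFM-Ca2+ replicate 3 and 0.0189 without DKSFM replicate 2. Like Hist1h2be, Hist1h4h had to be lower to pass the filter. Hist1h4d, at 1.4, 2.8 and 0.7 against 0.7, 0 and 1.6, overlapped between lines. Hist2h4 was listed at 2.4, 0.4 and 0.3 in KSFM-Ca2+ and at 0 in all DKSFM libraries, and Hist1h4f at 0.2, 0.9 and 0.9 against 0.2, 0.2 and 0.2. Neither passed the filter.

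**Figure D2:**
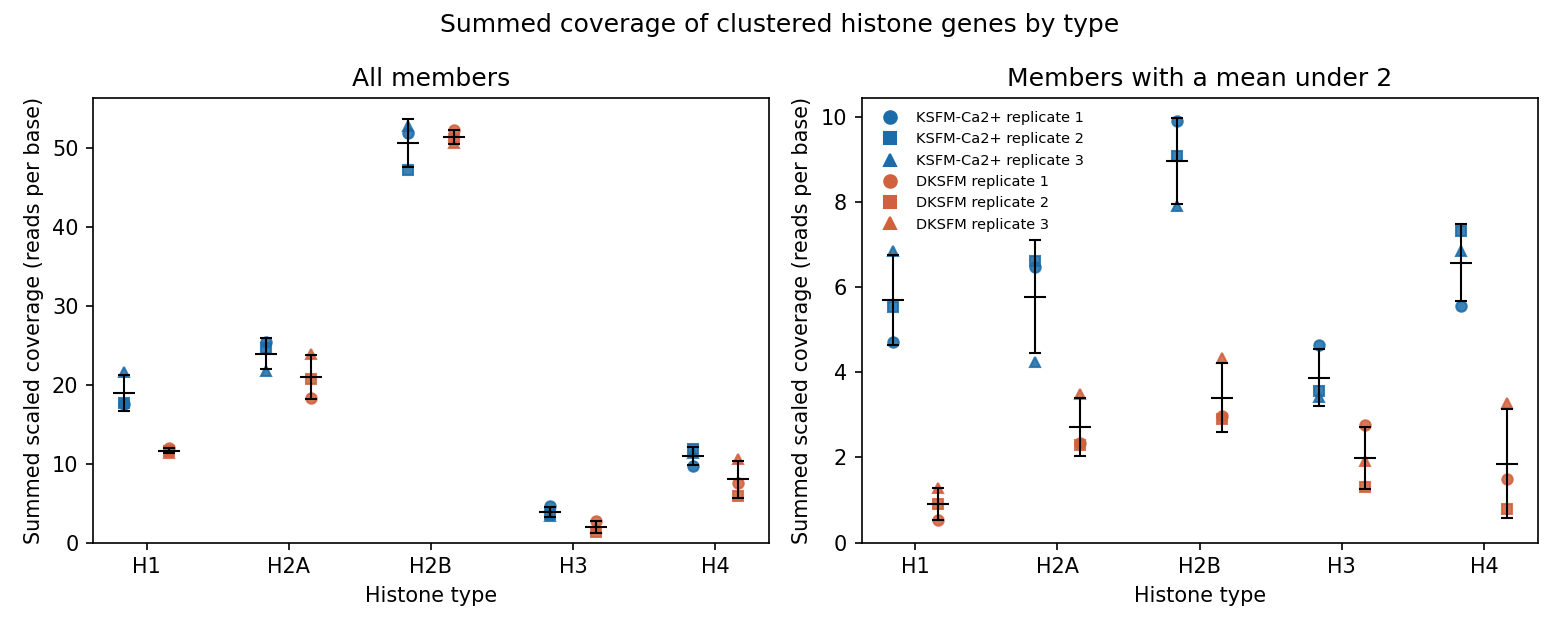
Summed scaled coverage (reads per base) by histone type and library, over all members (left) and over members with a mean under 2 (right), with mean and SD (n = 3). On the right the DKSFM sums lie below the KSFM-Ca2+ sums for all 5 types, while on the left H2A, H2B and H4 overlap.

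The count of 8 depended on the scaling and on how low values were treated. Under quantile scaling it was 12. With a pseudocount of 1 in place of 0.1 it was 2 (Hist1h1d and Hist1h1e). The other genes then kept a limma adjusted p under 0.01 but were within 2-fold, with Hist1h2ak at −0.923 in place of −2.17 and Hist1h1b at −0.70 in place of −1.78. With a filter that asked for the minimum in every library the count was 0, as that filter removed all 8. With only the libraries whose files are marked as combined, KSFM-Ca2+ replicate 3 and all of DKSFM, it was 0, and of the 8 only Hist1h1d and Hist1h2af still passed the filter. Their log2 fold changes were then −3.37 and −1.18, against −3.47 and −1.58 with all libraries (limma adjusted p = 0.0388 and 0.128). With 1 KSFM-Ca2+ library left, that fit takes its spread from the DKSFM libraries and assumes that the lone library varies like them, so these p-values and the count of 0 say little. What combined means is not stated in the sources used here, and as every DKSFM file carries the word, its part in the differences between lines cannot be told apart from that of the line. Near-identical copies add to the uncertainty: 27 of the 69 genes shared at least 50% of their 85-base windows with other genes, 13 shared at least 80%, of which 6 were at 0 in every library, and 6 shared none. Shares of other named genes included 40.9% for Hist1h4h, 30.3% for Hist3h2a and 26.4% for Hist1h2bc.

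Levels of RNAs that carry no poly(A) tail are given beside those of the histone genes. Scaled coverage of Rn45s, the ribosomal RNA precursor, was 242, 236 and 169 in the KSFM-Ca2+ libraries and 24.2, 25.5 and 57.8 in the DKSFM libraries. It fell by 2.69 ± 0.31 on the log2 scale (limma adjusted p = 7.2e-05). Rpph1, the RNA of RNase P, was at 19.8, 21.9 and 11.9 against 0.849, 1.30 and 7.74 and fell by 2.99 ± 0.70 (limma adjusted p = 0.00427). In both, DKSFM replicate 3 was the highest of its line. Rmrp, named after its values were seen, was at 14.9, 17.3 and 13.7 against 1.59, 0.600 and 26.6, so DKSFM replicate 3 exceeded every KSFM-Ca2+ library and no call was made (limma adjusted p = 0.0960). The list as a whole did not share this direction. Of 127 such genes, mostly small nucleolar RNAs, 87 were tested, 3 fell (3.45%) and 4 rose (4.6%), where 10.5% and 13.2% of all tested genes did, and the median log2 fold change was 0.14 against 0.00 for all tested genes. The third gene that fell was Scarna10 (1.60, 1.78 and 0.708 against 0 in all DKSFM libraries), which passed the filter through KSFM-Ca2+ libraries only. Snord66 rose by 3.47 ± 0.74 (limma adjusted p = 0.00265), Snord38a, Snord33 and Snora43, named after their values were seen, also rose, Snord38a having passed the filter through DKSFM libraries only, and of the abundant ones Snord22 overlapped between lines while Snord12 was at 0.37 ± 0.07, under 2-fold. The part of RNA without tails in the lower level of the low histone genes was not tested.

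Of 25 genes of S phase, all tested, 12 fell (48.0%) and 0 rose, where 10.5% and 13.2% of all tested genes did. At an unadjusted limma p under 0.05, 24 were lower and 1 (Rrm1) higher, and 13 of the 25 were within 2-fold. The median was −0.99. Summed scaled coverage was 3371, 3461 and 3559 in KSFM-Ca2+ and 2184, 2051 and 2101 in DKSFM, with Pcna, the replication clamp, the most abundant. Pcna fell by 1.22 ± 0.03 (limma adjusted p = 1.65e-08), Pola1, a subunit of DNA polymerase alpha, by 1.64 ± 0.06 (limma adjusted p = 6.57e-08), and Mcm3 of the replicative helicase by 1.50 ± 0.05 (limma adjusted p = 3.19e-08). Gins2 fell by 1.41 ± 0.05 (limma adjusted p = 7.52e-08), while Mcm7 and Rrm1, among the most abundant, were at −0.27 ± 0.03 and 0.46 ± 0.03. Mki67, a marker of cycling cells, fell by 1.38 ± 0.05 (limma adjusted p = 4.34e-08). The S-phase sum of DKSFM replicate 3 lay between those of DKSFM replicates 1 and 2. The part of S-phase content in the level of the histone genes was not tested.

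**Figure D3:**
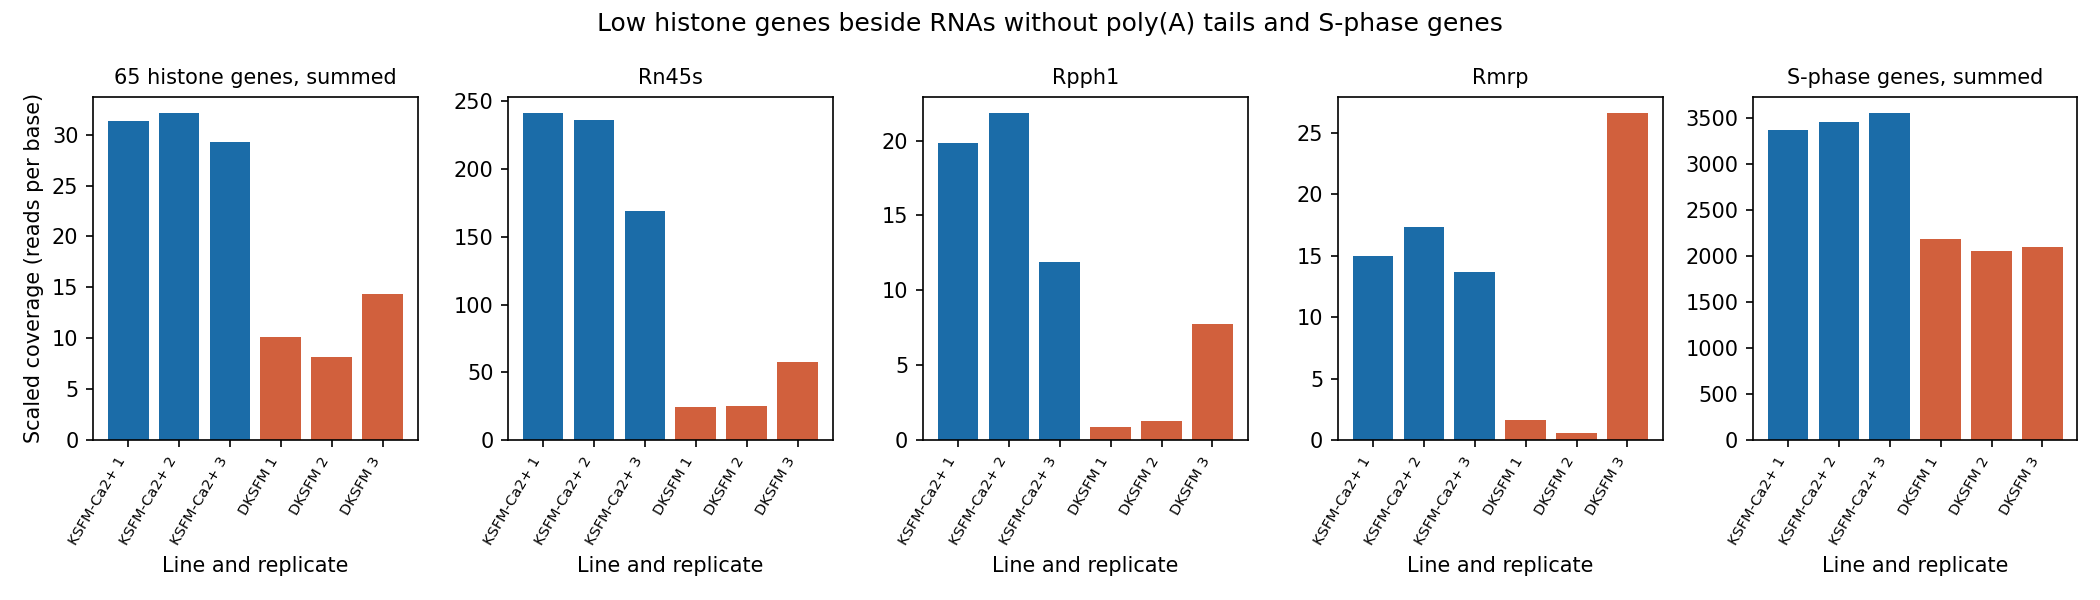
Scaled coverage (reads per base) in each library of the 65 histone genes with a mean under 2, of Rn45s, Rpph1 and Rmrp and of the 25 S-phase genes, the first and last panels being sums. DKSFM replicate 3 exceeds every KSFM-Ca2+ library for Rmrp, which was chosen after its values were seen. In the other panels all DKSFM libraries are lower. The RNAs without tails shown here do not stand for the 127 genes of their list, of which 87 were tested. Of these, 3 fell (3.45%) and 4 rose (4.6%), where 10.5% and 13.2% of all tested genes did.

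Genes that make, trim and degrade histone mRNA, and histone chaperones, were read against all tested genes, of which 10.5% fell and 13.2% rose. Of 19 tested genes for transcription and 3′ processing, 0 passed the threshold in either direction, with 11 lower and 4 higher at an unadjusted limma p under 0.05 (median −0.17), where 41.3% and 40.6% of all tested genes were. Slbp, whose protein binds the stem-loop, was at 186, 191 and 187 against 126, 114 and 119, a log2 difference of −0.65 ± 0.04 and so under 2-fold. Srrt, the most abundant, and Cstf2, a cleavage factor, were at −0.27 ± 0.05 and −0.57 ± 0.03. Npat, named after its values were seen, was at −0.62 ± 0.06. Among 10 decay genes 0 passed, with 6 lower and 2 higher at an unadjusted limma p under 0.05 (median −0.36). Mif4gd, which binds SLBP, was at 0.46 ± 0.04, Exosc10 of the exosome at −0.58 ± 0.06, and the helicase gene Upf1 at −0.01 ± 0.04, which was 0.03 under quantile scaling. Eri1 and Lsm1, named after their values were seen, had the largest differences on this list, −0.82 ± 0.04 and −0.75 ± 0.06. Of 26 histone chaperones 1 fell (3.85%) and 0 rose, 20 being lower and 4 higher at an unadjusted limma p under 0.05 (median −0.38). This was Asf1b, which hands H3 and H4 to nucleosome assembly, at 96.9, 94.6 and 99.7 against 29.3, 28.4 and 27.4 (−1.77 ± 0.04, limma adjusted p = 6.67e-09). The most abundant chaperones, Npm1, Nap1l1 and Ssrp1, were at −0.36, −0.41 and −0.56 on the log2 scale.

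The genes of replacement variants lie outside the clusters. Of 16 in the files 10 were tested, 1 fell (10%) and 1 rose (10%), near the 10.5% and 13.2% of all tested genes, with a median of 0.14. H3f3b, which encodes H3.3 and was the most abundant, was at 638, 621 and 616 against 705, 761 and 698 (0.21 ± 0.04). Cenpa, the centromeric H3 gene, was at 0.34 ± 0.05 and H2afz at 0.07 ± 0.03. H2afj rose by 1.60 ± 0.04 (53.9, 54.0 and 58.0 against 166, 171 and 167, limma adjusted p = 9.11e-09), and H2afy2, a macroH2A gene, fell by 1.56 ± 0.21 (limma adjusted p = 0.000147). Their summed coverage of 2904, 2827 and 2845 against 2984, 3036 and 2925 was far above that of the clustered genes in every library.

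**Figure D4:**
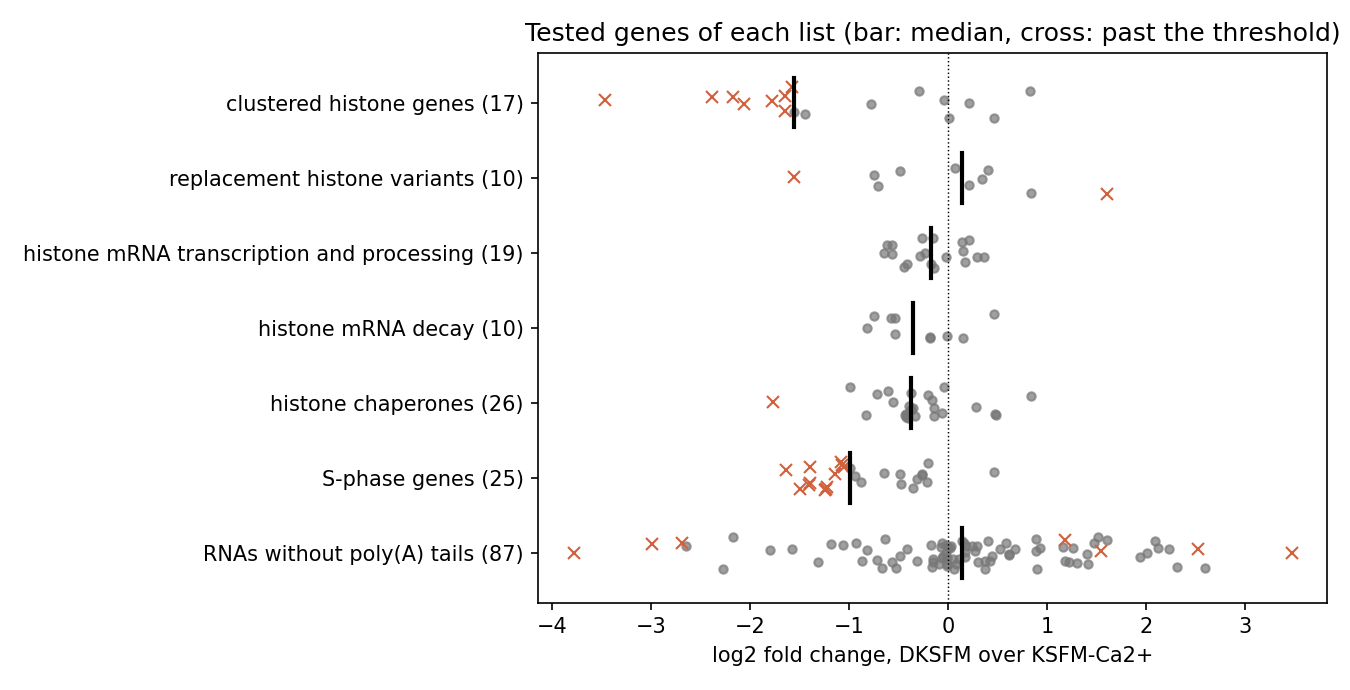
Log2 fold change (DKSFM over KSFM-Ca2+) of the tested genes of 7 lists, with black bars at the medians and crosses at genes past the threshold. The 17 clustered histone genes include only those that passed the filter, 4 of them through KSFM-Ca2+ libraries only, so their median is no summary of all 69.

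H2A and H2B genes often start back to back, and 13 such pairs lay with starts 173 to 306 bases apart (median 251). In 11 pairs both genes had a mean under 2, so only Hist3h2a with the pseudogene Hist3h2bb-ps and Hist1h2bc with Hist1h2ac did not. Hist1h2bc averaged 44.8 over the 6 libraries, and Hist1h2ac, which starts 251 bases away, averaged 0.346. The promoter window of Hist1h2ac in RefSeq (GRCm38.p6) spans the space between them, at chr13:23683910-23684209 on the minus strand. It is shown as the sequence that both genes share, with capitals at matches, on either strand, to CCAAT, to the TATA box letters TATAAA and to the octamer ATTTGCAT.
Hist1h2ac: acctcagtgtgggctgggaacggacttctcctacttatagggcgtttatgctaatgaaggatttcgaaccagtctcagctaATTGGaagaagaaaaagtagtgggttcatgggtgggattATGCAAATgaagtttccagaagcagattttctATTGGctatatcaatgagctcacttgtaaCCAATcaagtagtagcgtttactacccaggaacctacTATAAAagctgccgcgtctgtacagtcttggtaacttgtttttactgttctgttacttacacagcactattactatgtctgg
Of 62 histone genes with a promoter window, 53 held CCAAT (85.5%, against 37.4% of 32851 promoters), 35 held TATAAA (56.5% against 13.6%) and 14 held the octamer (22.6% against 1.7%). The octamer was found in 7 of 18 H2A and 7 of 16 H2B promoters and in 0 of the H1, H3 and H4 promoters. Windows of divergent pairs can overlap, so the same site can be counted for both genes, as with the octamer of Hist1h2ah and Hist1h2bk. These shares are therefore not counts of separate sites. CCAAT was found in 3 of 12 H4 promoters and in all of the other types. Hist1h2bc has no entry of its own there.

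**Figure D5:**
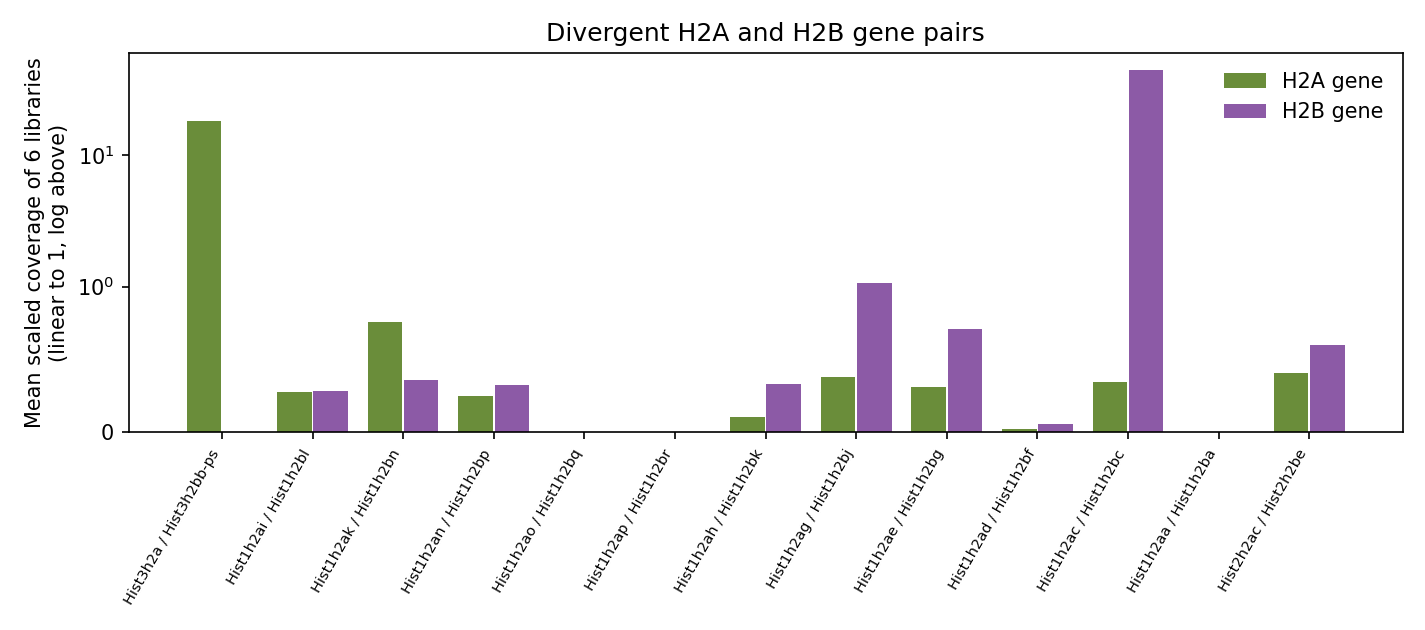
Mean scaled coverage over 6 libraries (reads per base, linear to 1 and logarithmic above) of the H2A and H2B gene of each divergent pair. In 11 of 13 pairs both genes lie under 2, and Hist1h2bc stands at 44.8 beside Hist1h2ac at 0.346.

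Other genes near the clusters did not share one direction. Within 10 Mb on either side of the Hist1 cluster on chromosome 13, 76 other tested genes had a median log2 fold change of −0.13 (−0.15 over the tested genes of the whole chromosome), with 15 lower (19.7%) and 10 higher (13.2%) past the threshold, where 10.5% and 13.2% of all tested genes were. Around Hist2 on chromosome 3 the median of 247 genes was 0.52 (0.22 over the chromosome), with 18 lower (7.29%) and 68 higher (27.5%). Around Hist3 on chromosome 11 it was −0.17 over 173 genes (−0.07 over the chromosome), with 14 lower (8.09%) and 7 higher (4.05%), and around Hist4 on chromosome 6 it was 0.18 over 83 (0.31 over the chromosome), with 7 lower (8.43%) and 22 higher (26.5%). Hist2h2bb fell in the region where the neighbours' median was above 0, while Hist2h2be in the same region went the other way (0.83 ± 0.21, under 2-fold). By symbol, Hist1 held 55 of the genes, Hist2 10, Hist3 3 and Hist4 1, and Hist1h2al, at 0 in every library, lies apart from the Hist1 cluster at chr13:51202727-51203065.

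Markers of cell types were read beside these results, and those named were chosen after their values were seen. These lists are short, and 10.5% of all tested genes fell and 13.2% rose. All 6 basal keratinocyte genes were tested and 2 (Krt5 and Krt14) rose, with a summed coverage near 18920 to 19320 in KSFM-Ca2+ and 40890 to 45180 in DKSFM, most of it from Krt14 and Krt5. The 4 others were within 2-fold, and Itgb4 went the other way (−0.74 ± 0.04, limma adjusted p = 4.43e-07), every DKSFM library being lower. Of 4 suprabasal genes 3 were tested and Lor rose, with sums of 24.8, 24.9 and 25.7 against 22.1, 24.2 and 22.7, and Krt1 was at 0 in KSFM-Ca2+. Ivl, the most abundant, went the other way from Lor (−0.66 ± 0.05, limma adjusted p = 3.7e-06), with every DKSFM library lower. Of 6 fibroblast markers only Pdgfra was above 0 (sums of 1.14, 0.890 and 1.30 against 2.34, 2.10 and 2.23), while Col1a1, Col1a2, Col3a1, Dcn and Lum were at 0. None of 6 melanocyte genes was tested (sums 0.212 to 0.890, Pmel highest, Dct and Tyr at 0). Of 4 endothelial genes Pecam1 rose (sums of 2.82, 3.16 and 3.30 against 8.28, 8.29 and 7.42) and Cdh5 was at 0. Of 5 immune genes only Cd68 was tested, with sums of 10.8, 11.2 and 12.5 against 13.6, 18.9 and 20.6, and Cd3e and Tyrobp at 0. The 2 Merkel genes reached 0.0989 at most (Krt20, with Atoh1 at 0). The 5 spermatogenic genes summed to 0.530 at most, in DKSFM replicate 3, where Ddx4, the most abundant, was at 0.318 (Prm1 and Tnp1 at 0). The testis histone genes Hist1h1t, Hist1h2aa and Hist1h2ba were at 0 in every library. The reference genes Gapdh and Actb were not level between the lines either, Gapdh at −0.60 ± 0.03 on the log2 scale and Actb, at 2980, 3196 and 3550 against 1670, 1452 and 1728, past the threshold (limma adjusted p = 6.46e-06).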

How the data were processed

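The deposited coverage (signal) was made by the authors from directional poly(A) libraries and is rounded to 1 decimal. They used STAR for alignment to mm10, RefSeq annotation, Salmon for quantification and the authors' DESeq2 run for their own comparison. How coverage was computed is not given in the sources used here. No count model was fitted here, because these values are not counts, and DESeq2 was not used. Depth was normalised with a hand-coded trimmed mean of M values without weights (trims of 30% and 5%). Genes were tested if they reached 0.5 in 3 or more libraries after scaling (2 with a library left out or combined libraries only). They were fitted with limma 3.58.1 in R 4.3.3 on log2(scaled coverage + 0.1) with an intensity trend, a two-sided test and Benjamini-Hochberg adjustment over all tested genes. Fold changes are on that scale and in low genes can differ in either direction from the ratio of means. The fit was tested on simulated data. Changed genes in them had a mean scaled coverage of at least 1, so changes in lower genes were not covered. Python 3.11.15, pandas 2.3.3 and matplotlib 3.10.9 were used for the rest. Sums over members had no test. Alternatives were other scalings, filters, pseudocounts of 0.5 and 1, no trend, a replicate block, a correction for GC content and length, an adjusted p of 0.05, each library left out, and combined libraries only. Windows of 85 bases were compared between transcripts of GENCODE M21 (69 of 69 genes matched), and promoters came from RefSeq GRCm38.p6 (62 matched). Protein identity was not computed.

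Genes named were, per histone type, up to 5 with the highest mean coverage and up to 3 called with the largest change, any called higher, and for other lists up to 3 of each. Others are said to be chosen after their values were seen. Members and lists were chosen with earlier results of these data known. The limits at a mean of 2, 1 and 10 were chosen after seeing the data. Depth limits low values, where the rounding step of 0.1 is less than 1 read for most members.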

Additional observations from a re-analysis of the deposited data

How the results depend on the processing

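Of 807 values of named genes under the alternatives, 748 kept direction and side of the threshold, 44 lost a call, 0 gained one and 15 reversed. The cause was not tested for any change given here. Genes lower among the histones numbered 8, and 12 under quantile normalization, 14 with no filter, 0 with the filter in every library (fewer genes tested), 2 at a pseudocount of 1, 5 without the intensity trend, 0 with combined libraries only (fewer samples, the lone KSFM-Ca2+ library being assumed to vary like the others) and 6 to 11 with a library left out. None (0) was higher under any alternative. All genes called higher numbered 1032 with the filter in every library. Log2 ratios of summed coverage under quantile normalization were −0.32 for all members, −0.83 for H1, −0.333 for H2A, −1.39 for H3, −0.695 for H4, −1.91 for the other 65, −0.28 for members with a poly(A) signal and −0.345 for those without. With combined libraries only they were −0.89 for H1, −0.045 for H2A, 0.027 for the abundant members and −1.43 for the others. With the split at a mean of 10 and all libraries, the ratio of the others was −1.05. Sums of all, abundant and other members, of members with and without a signal, and the split were added after seeing the data. With a library left out they ranged from −0.76 to −0.60 for H1, −0.29 to −0.10 for H2A, −1.27 to −0.73 for H3, −0.71 to −0.28 for H4, 0.06 to 0.14 for the abundant members and −1.76 to −1.34 for the others. The H2B ratio ranged from −0.03 to 0.05. Reversed values, none of them calls, were Hist3h2a (−0.008 with library totals, −0.074 with quantiles, −0.077 to 0.108 with a library left out, below 0 without KSFM-Ca2+ replicate 3 at −0.023 and DKSFM replicate 3 at −0.077), Hist1h2bj (0.393 with combined libraries only), Hist1h3c (0.569 with combined libraries only, −0.349 to 0.333 with a library left out, above 0 without KSFM-Ca2+ replicate 1 at 0.333 and DKSFM replicates 2 and 3 at 0.005 and 0.019), Upf1 (0.031 with quantiles, −0.034 to 0.018 with a library left out) and Snord22 (0.000 with relative log expression factors, −0.181 to 0.145 with a library left out).

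With the replicate number as a block, 7 histone genes were called lower, Hist1h2be being lost (limma adjusted p = 0.0160). Same-numbered libraries did not deviate together (correlations of −0.005, 0.024 and −0.006), so the numbers were not taken as pairs.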
